A study of Rattus norvegicus with 6 samples.

Results

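The endoplasmic reticulum (ER) is where proteins bound for secretion are threaded through a membrane channel, tagged with sugars, folded, cross-linked by disulfide bonds and, where folding fails, sent back for degradation. The set described here holds 41 genes of that machinery, and its members were found as the array probes whose RefSeq accession maps to one of the 41 symbols. Of the 41 genes, 34 had a probe and 32 passed the filter on dim probes, out of 13903 named genes on the array and 8732 genes tested. Manf, Pdia3, Txndc5, Ero1b, Edem1, Derl2 and Ern1 were not matched to a probe and are not analysed here. Pdia2 and Atf6 had a probe that was well above background on 1 of the 6 scans, so they were not tested. Of the 32 tested genes, 30 were well above background on all 6 scans. The exceptions were Ero1a, above background on the 3 control scans only, and Erp27, above it on 3 scans of the pancreatitis group and on 1 control scan.

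The series compared the pancreas of control male rats of 6 weeks with that of male rats of the same age with acute pancreatitis (AP). AP was induced by injecting sodium taurocholate, a bile salt, backwards into the pancreatic duct (4% solution, 1 mL/kg), and the tissue was taken 9 h later; the labels give no strain and do not say whether control rats were operated on. RNA depleted of ribosomal RNA was labelled with Cy3 after random priming and hybridised to 1-colour Agilent arrays, 3 deposited scans per group. Scans 2 and 3 of each group proved to be scans of the same array, so the comparison rests on 2 arrays per group, called array 1 and array 2 below, and p-values measure only the spread between these arrays.

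Single-spot deviations from the probe mean correlated at r = 0.991 between control scans 2 and 3 and at r = 0.988 between AP scans 2 and 3 (2212 spots, which are not independent), and both scans of a pair carry the same slot in their headers. All arrays lay on 1 slide, control in slots 1 and 2 and AP in slots 3 and 4, so slot and group cannot be told apart. Control scans were brighter, with a 75th percentile of the signal of 140 to 147 against 70.1 to 77.7 on AP scans, and no spot was saturated. Levels are therefore given as the log2 signal minus that percentile, so a gene counts as lower when it lost ground against the rest of the scan. Without that scaling the median log2 difference over all 8732 genes was -0.99 instead of -0.03. Marker genes of several cell types also differed. Neutrophils are known to enter the pancreas in acute pancreatitis, but their markers were lower on the arrays labelled AP (6 of 8 tested lower, 1 higher), with a summed level of 18.3 and 19.7 on control and 1.42 and 2.46 on AP arrays. Of the 6 lower markers, S100a8, Ncf4, Csf3r, Itgam and Camp were above background on control scans only, so they entered the test through the control group, and S100a8 (3.93 and 4.06 on control arrays) made up most of the control sum. Mmp9 was above background on all scans and lower, and Ncf1 likewise and higher. Directions below follow the labels as given. Whether the labels of the groups were exchanged was not tested, and an exchange would turn every direction, count and fold below the other way. These sums are in multiples of the 75th percentile, on a linear scale. They take in each listed gene with a value on every array, tested or not. For B and plasma cell markers they were 1.85 and 1.89 on control and 33.7 on both AP arrays (7 of 9 tested higher, none lower; Cd79b, Tnfrsf17 and Irf4 were not well above background on control arrays). T cell markers summed to 5.18 and 4.42 on control and 58.4 and 59.2 on AP arrays (10 of 11 higher, 1 lower). Adipocyte markers summed to 460 and 464 against 17.4 and 17.2 (7 of 9 lower). Erythroid markers summed to 645 and 744 against 30.7 and 31.5 (6 of 7 lower, 1 higher). Hbb (9.27 and 9.48 on control arrays, 4.73 and 4.77 on AP arrays) made up most of this sum in both groups. Slc4a1, a lower erythroid marker, was above background on control scans only. Fibroblast markers summed to 147 and 167 against 36.4 and 31.0 (7 of 9 lower, 1 higher). The fibroblast sum leaves out Dcn and Sparc, each without a value on 1 control array, though both count among the 7 lower. The 20 acinar enzyme genes, which mark the labelled tissue, summed to 110 and 109 on control and to 138 and 127 on AP arrays. Of these, 9 were higher, 2 lower and 9 not past the threshold. Macrophage markers summed to 39.6 and 40.2 on control and 40.1 and 41.3 on AP arrays (2 of 10 higher, 2 lower). This sum leaves out Cd68 and Lyz2, which lacked a value on at least 1 array. Duct cell markers summed to 26.4 and 26.1 against 28.4 and 34.6 (3 of 7 lower, 1 higher). Slc4a4, the higher duct marker (4.24 and 4.66 on AP arrays), made up most of the AP sum, while Krt8, Krt19 and Spp1 were lower. Islet cell markers summed to 8.89 and 10.5 against 4.26 and 4.96 (2 of 5 lower, 1 higher). In bulk tissue, fewer cells of a type and less RNA per cell cannot be told apart, and the part of these markers in the results below was not tested.

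The acinar cell of the pancreas makes more protein for its mass than almost any other cell, and its rough ER is correspondingly dense. When unfolded proteins build up, the sensors IRE1, PERK and ATF6 start the unfolded protein response (UPR), which slows translation and raises the genes of chaperones, disulfide enzymes and degradation. The comparison here asks how the RNAs of that machinery differed between the groups.

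On the arrays labelled AP the ER genes were more often lower than higher. Of the 32 tested members, 17 were lower (53.1%) and 3 were higher (9.38%), while over all 8732 genes 31.9% were lower and 24.1% higher (56.0% either way; limma, adjusted p below 0.05 over all probes tested). Over the 13217 probes the shares were 28.2% lower and 26.9% higher, 55.1% in all. The other 12 members did not pass the threshold. Their median log2 difference, AP minus control, was -0.42, against -0.03 over all genes. The lowest difference was that of P4hb, a disulfide isomerase, 5.32-fold lower. The 17 include Ero1a, which passed the filter through the control scans only, and the 3 include Erp27, which was above background on 1 control scan. With only probes above background on all scans fitted, 18 of 30 members were lower and 5 higher, against 32.8% and 30.6% of all genes in that fit. Among genes brighter than the 75th percentile, 38.8% were lower and 27.5% higher (66.3% in all), and of the 25 members in that range 15 were lower and 2 higher.

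The size of the count depended on each array and on the scaling. With control array 1 or control array 2 left out, 9 members were lower; without AP array 1 the count was 11, and without AP array 2 it was 10. The share of all genes that were lower went down in the same fits, to 22.7%, 21.5%, 26.9% and 25.9% in that order. With no scaling 29 members were lower and none higher, while 62.4% of all genes were lower and 5.30% higher. With normexp background correction, a model that removes local background, 12 were lower and none higher, while 16.1% of all genes were lower and 6.45% higher. An offset of 50 was added to the corrected signal in this setting, and its part in the change was not tested.

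**Figure D1:**
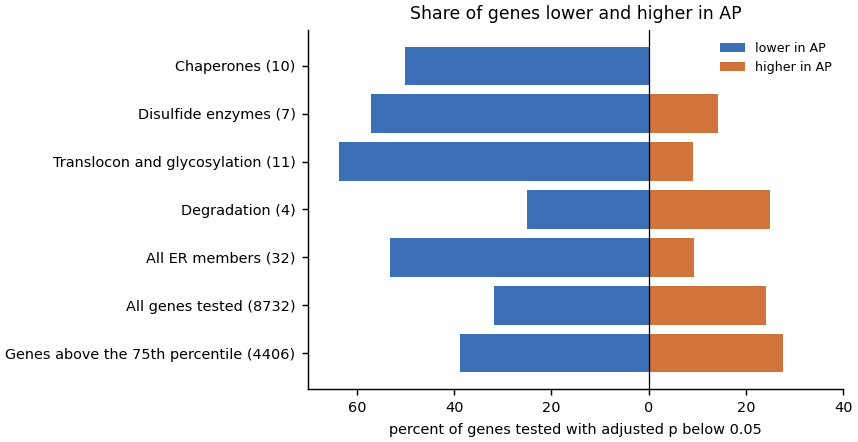
Percent of tested genes that were lower (blue, left) and higher (orange, right) in AP at an adjusted p below 0.05, for the role groups of the ER genes, all ER members and all genes, with the number tested in brackets. Among the ER members 53.1% were lower and 9.38% higher, against 31.9% and 24.1% of all genes.

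Chaperones hold folding proteins and keep them from clumping. Of 10 tested chaperone and cochaperone genes, 5 were lower (50%), none was higher and 5 did not pass the threshold (median -0.61). The shares over all genes were 31.9% lower and 24.1% higher. Hspa5 encodes BiP, the main Hsp70 chaperone of the ER lumen and the protein that keeps the UPR sensors quiet. Its level was 6.51 and 6.26 on control arrays and 4.25 and 4.23 on AP arrays. The arrays of the groups lay far apart, and Hspa5 was 4.40-fold lower in AP (-2.14 ± 0.13, SE, n = 2 arrays per group, limma adjusted p = 0.00162).

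Several BiP partners were lower as well. Dnajb9, a J-domain protein that brings substrates to BiP, stood at 5.91 and 6.09 on control arrays and 4.67 and 4.63 on AP arrays, a 2.55-fold difference (-1.35 ± 0.11, adjusted p = 0.00303). Dnajb11, another J-domain cochaperone, was lower by a smaller amount (-0.83 ± 0.14, adjusted p = 0.0131). Hyou1, a large relative of Hsp70 that acts as nucleotide exchange factor of BiP, had a difference of -0.87 ± 0.12 from its brighter probe (adjusted p = 0.00901) and -0.97 from its other probe (adjusted p = 0.00619). Fkbp11, a prolyl isomerase of secretory cells, was also lower (-0.83 ± 0.16, adjusted p = 0.0198). Dnajc3, which inhibits the kinase PERK and serves BiP, was at -0.38 ± 0.12 and did not pass (adjusted p = 0.0590).

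Hsp90b1 and the lectin chaperones did not pass the threshold. Hsp90b1, the Hsp90 of the ER, read 5.89 and 5.67 on control arrays, and 5.75 and 5.80 on those of AP, so that the AP values lay between the control values (-0.01 ± 0.12, adjusted p = 0.957). The lectin chaperones bind freshly added sugar chains. For the soluble one, Calr, the control arrays read 0.36 and 0.15 and the AP arrays 0.27 and 0.41 (0.08 ± 0.13, adjusted p = 0.621). For the membrane-bound one, Canx, they read -2.40 and -1.52 against -1.59 and -1.06, with control arrays further apart than for any other tested chaperone (0.63 ± 0.39, adjusted p = 0.240). Groups overlapped for all 3 genes. Sdf2l1, a BiP cofactor, was at 0.49 ± 0.14 (adjusted p = 0.0524).

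**Figure D2:**
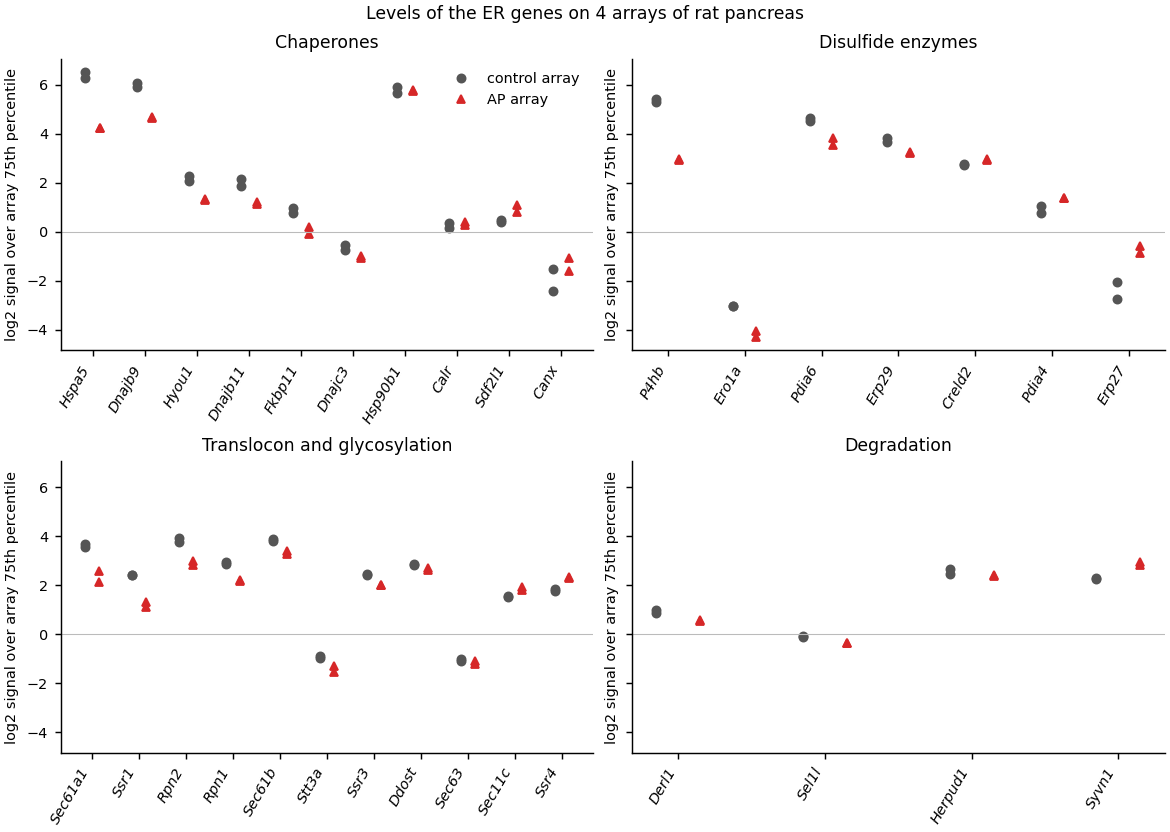
Level of each tested ER gene on each array (y axis, log2 signal over the 75th percentile of the array), in 4 panels by role; grey circles are the 2 control arrays and red triangles the 2 AP arrays. Hspa5, P4hb and Dnajb9 show wide gaps between the groups, while Hsp90b1, Calr and Canx overlap; levels of different genes come from different probes and are not comparable.

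Many chaperone genes carry an ER stress element (ERSE), the site through which ATF6 and XBP1 act, and the promoters of these genes were read to see which members share it. RefSeq promoters (build GRCr8, 250 bases before to 50 after the gene start) were found for 32 of the 41 members and searched on both strands. The ERSE, CCAAT followed after 9 bases by CCACG, was found in 21 of 27457 genes (0.0765%), and in 7 of the 32 members (21.9%). The shorter ERSE-II, ATTGG followed after 1 base by CCACG, was found in 17 of 27457 genes (0.0619%) and in 3 of the 32 members (9.38%). No gene held both. Only exact matches to these letters were counted, so copies with other letters would be missed. A match describes the letters only and is not evidence that a factor binds there. The stretches below, shown because the genes share an element but differ in the comparison, run 5′ to 3′ on the strand of the gene, with the element in capitals. Where it lies on the opposite strand it opens with CGTGG and ends with ATTGG, or with CCAAT for ERSE-II.
Hspa5 (ERSE, chr3:38452961-38453003, plus strand): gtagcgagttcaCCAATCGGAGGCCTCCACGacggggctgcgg
Hsp90b1 (ERSE, chr7:23012335-23012481, minus strand): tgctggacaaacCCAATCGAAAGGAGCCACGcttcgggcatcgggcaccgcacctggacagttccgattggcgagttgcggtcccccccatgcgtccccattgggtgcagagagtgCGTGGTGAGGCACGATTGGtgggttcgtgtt
Calr (ERSE, chr19:40213123-40213165, plus strand): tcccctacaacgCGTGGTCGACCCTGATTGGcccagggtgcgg
Canx (ERSE, chr10:35158057-35158099, minus strand): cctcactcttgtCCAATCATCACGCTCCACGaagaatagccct
Dnajc3 (ERSE, chr15:102432522-102432564, plus strand): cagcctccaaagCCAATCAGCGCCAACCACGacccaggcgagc
Creld2 (ERSE, chr7:121789227-121789269, plus strand): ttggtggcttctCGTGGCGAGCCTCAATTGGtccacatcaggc
Xbp1 (ERSE, chr14:84604546-84604588, plus strand): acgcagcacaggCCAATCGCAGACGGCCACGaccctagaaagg
Derl3 (ERSE, chr20:12766589-12766631, minus strand): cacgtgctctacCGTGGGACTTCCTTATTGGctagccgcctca
Dnajb11 (ERSE-II, chr11:91672800-91672822, minus strand): tcccaggcggcgATTGGCCCACG
Hyou1 (ERSE-II, chr8:53602682-53602816, plus strand): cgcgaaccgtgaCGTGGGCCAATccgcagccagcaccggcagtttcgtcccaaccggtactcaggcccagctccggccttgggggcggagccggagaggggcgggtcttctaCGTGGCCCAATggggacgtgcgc
Herpud1 (ERSE-II, chr19:10614809-10614843, minus strand): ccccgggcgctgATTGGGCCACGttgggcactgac

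Genes with the element did not move together. Of the 10 members with an ERSE or ERSE-II, 9 were tested. Of these, 3 were lower (Hspa5, Dnajb11 and Hyou1), none was higher and 6 did not pass. The 9 had a median difference of -0.14 and a range of -2.14 to 0.63. Over all genes 31.9% were lower and 24.1% higher, so the count of lower genes among the 9 was near the share of all genes. The 18 tested members whose promoter window held no exact match to either element had a median of -0.48, with 10 lower and 2 higher. The difference between these groups of genes was not tested. Hsp90b1, with an exact ERSE match on each strand, was at -0.01. Hspa5, with 1 exact match starting 43 bases before the gene start, was at -2.14. Outside the set, Xbp1, the transcription factor that IRE1 activates by splicing its RNA, has an ERSE 65 bases before its start and was 2.47-fold lower, while Derl3, a degradation channel gene with an ERSE at 154 bases, was 1.94-fold higher. Another motif, TGACGTGG, which is bound by XBP1, was found in 0.681% of genes and in 1 member, Hyou1, where it shares bases with an ERSE-II match.

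Disulfide enzymes make and reshuffle the bonds between cysteines that hold secreted enzymes in shape. Of 7 tested genes, 4 were lower (57.1%), 1 was higher (14.3%) and 2 did not pass the threshold (median -0.50). The shares over all genes were 31.9% lower and 24.1% higher. P4hb, the classical protein disulfide isomerase, had a level of 5.28 and 5.43 on control arrays and of 2.95 and 2.93 on AP arrays. It was the lowest difference of the whole set (-2.41 ± 0.10, 5.32-fold, adjusted p = 0.000965), and rank 442 from the lowest among the 8732 genes. Hspa5 held rank 543.

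Other enzymes of the group were lower by less. Pdia6, an isomerase that also dampens IRE1, fell by 0.88 on the log2 scale (SE 0.15, adjusted p = 0.0134), and Erp29, a non-catalytic relative that escorts secretory proteins, by 0.50 (SE 0.12, adjusted p = 0.0309). Ero1a, the oxidase that recharges the isomerases, read -3.04 on both control arrays, then -4.29 and -4.04 on AP arrays, and none of the AP scans had it well above background. It counts among the lower genes (adjusted p = 0.00578) but passed the filter only through the control scans, and its control level lay below the dimmest probe that was above background on AP scans, so no fold is given. With normexp background correction its difference changed sign (0.38, adjusted p = 0.322).

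Erp27 went the other way. This non-catalytic member of the family binds unfolded proteins and is known for its high expression in pancreas. Control arrays gave -2.06 and -2.75, AP arrays -0.59 and -0.88 (1.67 ± 0.29, adjusted p = 0.0149), with all AP values above all control values. It was above background on 1 of 3 control scans, so the size of the difference rests on control values near background, and no fold is given. Pdia4, an isomerase, was at 0.46 ± 0.14 (adjusted p = 0.0551) and Creld2, a stress-induced disulfide isomerase, at 0.18 ± 0.09 (adjusted p = 0.184); neither passed. Pdia2, the pancreas-specific isomerase, was above background on 1 control scan and on no AP scan, with levels of -2.81 and -4.08 on control and -4.17 and -4.21 on AP arrays.

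**Figure D3:**
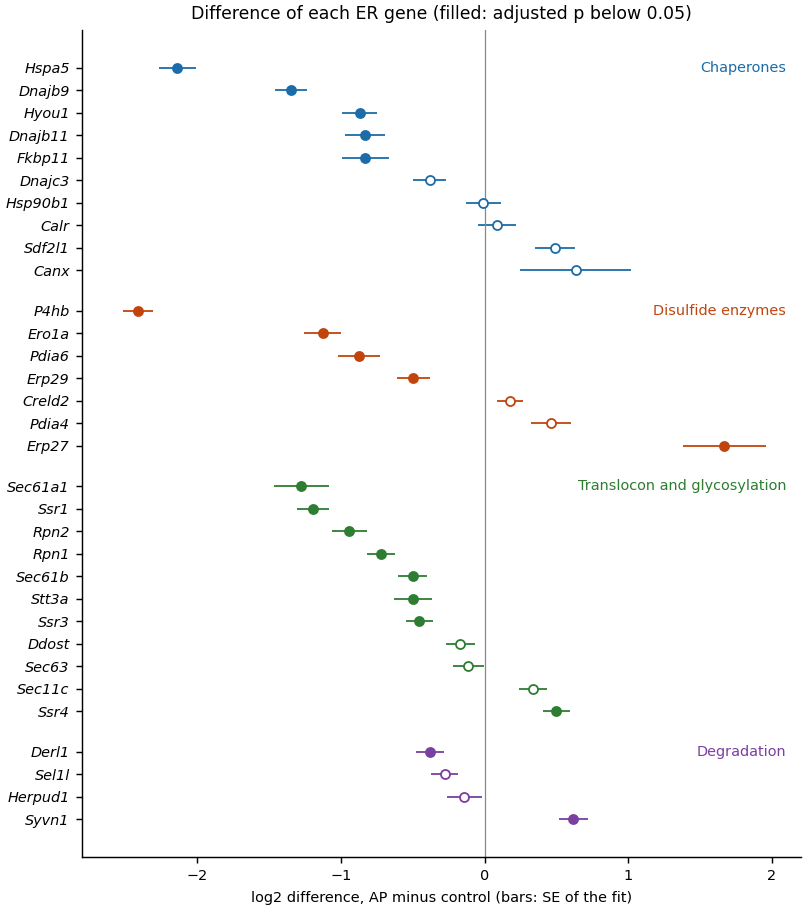
Log2 difference of each tested ER gene, AP minus control (x axis; bars are the SE of the fit, n = 2 arrays per group), grouped by role and ordered by size; filled points have an adjusted p below 0.05. Lower genes run from P4hb at -2.41 to Derl1 at -0.38, and the 3 higher genes are Erp27, Syvn1 and Ssr4.

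The translocon threads new chains into the ER, and oligosaccharyltransferase adds their first sugar. In this group 7 of 11 tested genes were lower (63.6%), 1 was higher (9.09%) and 3 did not pass (median -0.50). The shares over all genes were 31.9% lower and 24.1% higher. Sec61a1, the channel itself, stood at 3.55 and 3.69 on control arrays and 2.56 and 2.13 on AP arrays, 2.42-fold lower (-1.28 ± 0.19, adjusted p = 0.0101). Sec61b, a small subunit of the channel, fell by 0.50 (SE 0.10, adjusted p = 0.0210). Sec63, which couples the channel to BiP, was at -0.11 ± 0.11 (adjusted p = 0.425).

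The translocon-associated protein (TRAP) complex sits beside the channel, and its subunits differed in direction. Ssr1, the alpha subunit, read 2.41 and 2.40 on control and 1.11 and 1.30 on AP arrays (-1.19 ± 0.11, 2.29-fold lower, adjusted p = 0.00389). Ssr3, the gamma subunit, was lower too (-0.45 ± 0.09, adjusted p = 0.0216). Ssr4, the delta subunit, rose from 1.76 and 1.83 to 2.28 and 2.32 (0.50 ± 0.10, adjusted p = 0.0187), relative to the whole signal. Without scaling Ssr4 was called lower instead (-0.46, adjusted p = 0.0243).

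Of the oligosaccharyltransferase subunits in the set, 3 were lower and 1 did not pass the threshold; Dad1, a subunit outside the set, was higher and is given with the other pathway genes. Rpn2 and Rpn1, the ribophorins, had differences of -0.94 ± 0.12 (adjusted p = 0.00756) and -0.72 ± 0.10 (adjusted p = 0.00781). Stt3a, the catalytic subunit that works on chains during translocation, was at -0.50 ± 0.13 (adjusted p = 0.0420), a call that normexp background correction removed (0.01). Ddost, a further subunit of the same enzyme, was at -0.17 ± 0.10 (adjusted p = 0.224). Sec11c, a catalytic subunit of signal peptidase, was at 0.34 ± 0.10 (adjusted p = 0.0537).

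Degradation genes of the set had the median nearest 0 of the 4 roles. They encode the lectins, channel and ubiquitin ligase that return misfolded proteins to the cytosol. Here 1 of 4 tested genes was lower (25%), 1 was higher (25%) and 2 did not pass (median -0.21). With 31.9% of all genes lower and 24.1% higher, both counts were near the share of all genes. Syvn1 encodes the ubiquitin ligase at the centre of this pathway. It rose from 2.28 and 2.27 on control arrays to 2.84 and 2.95 on AP arrays (0.62 ± 0.10, 1.54-fold, adjusted p = 0.0122), while without scaling its difference was -0.34 (adjusted p = 0.0541).

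Its partner Sel1l, the adaptor that hands substrates to the ligase, stood at -0.12 and -0.05 on control and at -0.37 and -0.36 on AP arrays (-0.28 ± 0.09, adjusted p = 0.0733). Derl1, a channel protein of the same complex, read 0.98 and 0.87 against 0.56 and 0.53 (-0.38 ± 0.10, adjusted p = 0.0401). Its call was lost in 10 of 19 other settings, among them every setting with 1 array left out. Herpud1, a membrane scaffold that the UPR induces, was at -0.14 ± 0.12 (adjusted p = 0.377).

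Of the sensors, Ern1 (IRE1) had no matched probe, and Atf6 was near background, at -3.58 and -3.15 on control and -2.04 and -3.41 on AP arrays. Genes of UPR signalling from a further list were measured as well. Of 16 tested, 10 were lower, 4 were higher and 2 did not pass (median -0.76). Eif2ak3, which encodes PERK, rose from -0.80 and -0.68 to 0.78 and 0.70 (1.48 ± 0.10, 2.79-fold, adjusted p = 0.00211). Several genes known to act downstream of PERK were lower. Atf4, whose translation PERK promotes, went from 5.33 and 5.30 to 3.51 and 3.84 (-1.64 ± 0.15, adjusted p = 0.00359). Ddit3, which encodes the factor CHOP, was 4.66-fold lower (adjusted p = 0.00111), and Ppp1r15a, which reverses the translation block, 4.49-fold lower (adjusted p = 0.00128). Asns, an asparagine synthetase driven by ATF4, was at least 6.35-fold lower and Atf3 at least 9.66-fold lower, both at background on AP arrays. Such bounds are taken against the dimmest probe above background on each AP scan, or the gene's own signal where higher. Xbp1 stood at 3.78 and 3.84 on control arrays and 2.36 and 2.65 on AP arrays (-1.30 ± 0.14, adjusted p = 0.00516). The probe does not tell the spliced from the unspliced form. Creb3l1 and Creb3l2, membrane-bound factors of the ATF6 kind, were 1.90-fold and 1.51-fold higher. Each of Xbp1, Atf4, Ddit3 and Eif2ak3 kept its direction and its call in all 19 other settings.

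The remaining pathway genes in the 4 roles were lower more often than higher in each role, as were all genes (31.9% lower, 24.1% higher). Of 14 tested chaperones and glycan-trimming enzymes, 8 were lower and 2 higher (median -0.58). Clgn, a relative of calnexin, was at least 3.57-fold lower and at background on AP arrays, Pofut2, a sugar transferase, 2.42-fold lower and Hspa13, an Hsp70 relative, 2.04-fold lower, while Cnpy3, a cofactor of Hsp90b1, was 1.95-fold higher. Of 12 disulfide enzymes, 5 were lower and 1 higher (median -0.35), a share of 41.7% lower. Qsox1, a sulfhydryl oxidase, was 2.66-fold lower, Vkorc1, the vitamin K reductase, 2.39-fold and Txndc15 2.28-fold, and Selenom, a selenoprotein of the ER, was higher by 1.07 on the log2 scale.

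Of 15 other translocon and glycosylation genes, 10 were lower and 1 higher (median -0.61). Tusc3, a subunit of oligosaccharyltransferase, was 2.44-fold lower, Alg5, which makes a glucose donor, 2.28-fold and Sec11a, the paralogue of Sec11c in signal peptidase, 1.98-fold. The exception was Dad1, a small oligosaccharyltransferase subunit, at 7.26 and 7.55 on control and 8.47 and 8.58 on AP arrays, 2.17-fold higher (adjusted p = 0.00741). Of 17 other degradation genes, 8 were lower and 2 higher (median -0.50). Bcap31, an export and quality control factor of the ER membrane, was 2.98-fold lower, Ufd1, a partner of the extraction ATPase Vcp, 2.12-fold lower, Faf2, another such partner, lower with no fold given because it was above background on 1 of 3 AP scans, and Rnf5, a ubiquitin ligase, was 1.99-fold higher.

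**Figure D4:**
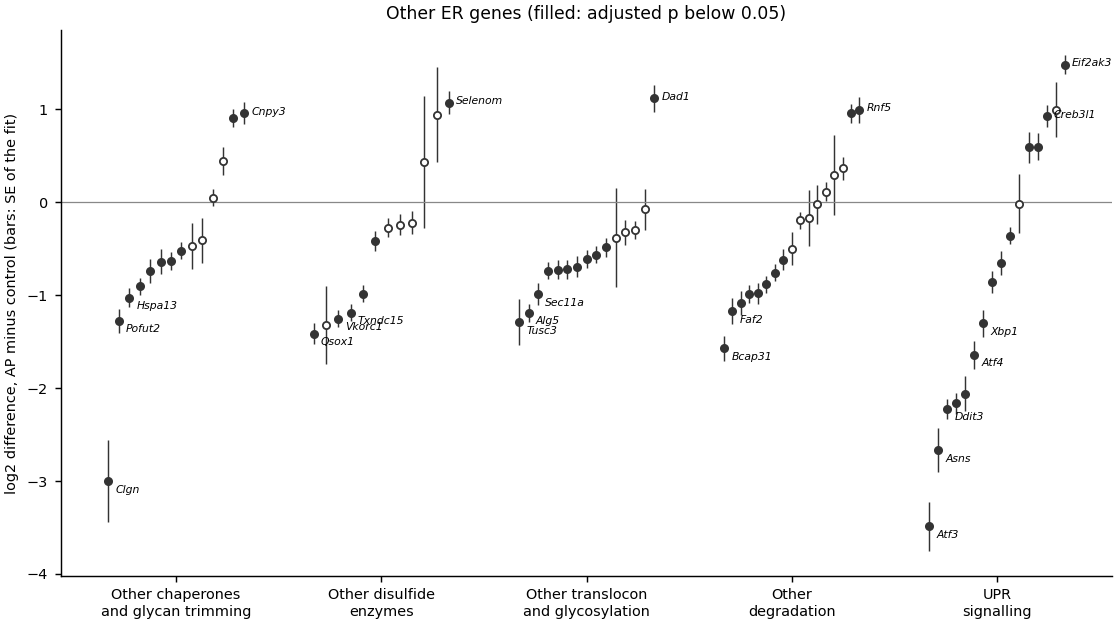
Log2 difference, AP minus control (y axis), of the tested ER genes outside the set in 5 lists, each ordered by size. Bars are the SE of the fit (n = 2 arrays per group). Filled points have an adjusted p below 0.05, and some of the genes with large differences in each list are labelled. Eif2ak3 lies at 1.48, while Ddit3 and Atf4 lie at -2.22 and -1.64.

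The lower calls differed in how firmly they held. Hspa5, Dnajb9, Hyou1, P4hb, Ssr1, Rpn1 and Rpn2 were lower at an adjusted p below 0.05 in the main comparison and in all 19 other settings. Dnajb11, Pdia6 and Sec61a1 lost the call in 2 of the 19, Fkbp11 in 5, Sec61b in 6, Erp29 in 7, Ssr3 in 8 and Derl1 in 10; Stt3a lost it in 8 and changed sign in 1. Ero1a kept it in 17 of 18 and changed sign in 1. Of the higher genes, Erp27 lost its call in 4 of 18 settings, Syvn1 in 5 of 19 and Ssr4 in 6 of 19, and the latter pair changed sign without scaling.

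**Figure D5:**
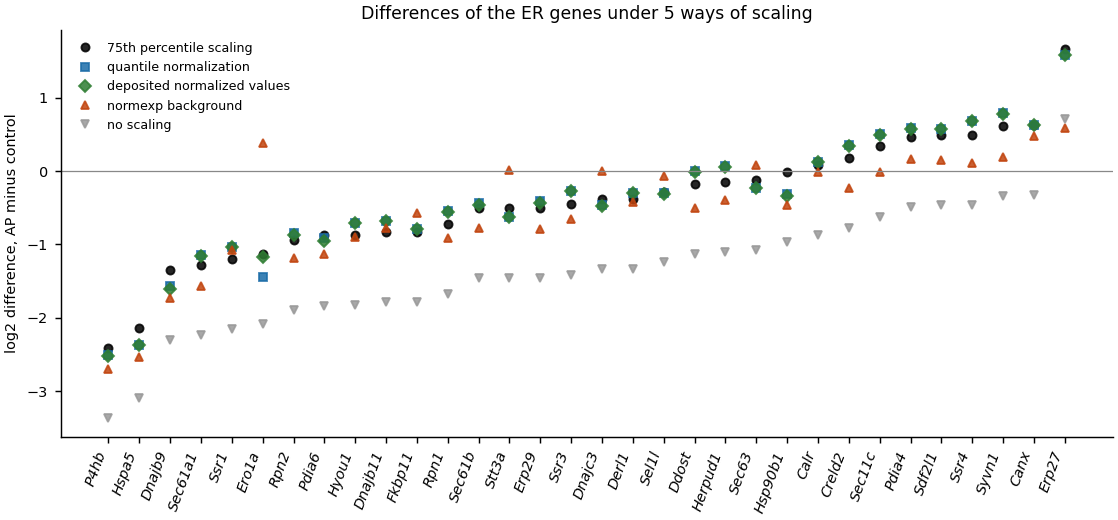
Log2 difference of each tested ER gene, AP minus control (y axis), under 5 ways of scaling the same arrays (symbols), with genes ordered by the value under 75th percentile scaling. Without scaling the median of the set is -1.37 instead of -0.42, whereas quantile normalization and the deposited normalized values keep P4hb, Hspa5 and Dnajb9 lowest and Erp27 highest.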

How the data were processed

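Expression was measured in rat pancreas on 1-colour Agilent arrays, 3 deposited scans of control and 3 of AP tissue. The authors deposited scanner output from Agilent Feature Extraction 11.0.1.1, per the file headers, with a processed signal intensity per spot that is already background-subtracted, and a table of normalized log2 values made by a method that no header or label states.

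Spots marked as outliers were left out and spots of a probe averaged. The log2 intensity minus the scan's 75th percentile is the level. Scans 2 and 3 of each group are 1 array and were averaged, leaving 2 arrays per group. Probes well above background on at least 3 scans were kept (13217 fitted), and a gene was taken from its brightest probe. Groups were compared with limma 3.58.1 in R 4.3.3 (lmFit and eBayes, 2 residual degrees of freedom), with Benjamini-Hochberg adjustment over all fitted probes and a threshold of 0.05. The fit was tested on simulated data. Names come from RefSeq accessions, and promoters from a RefSeq table (GRCr8).

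The members, the other gene lists, the markers and the rule for genes given by array were chosen with earlier results of these data known. The rule gives array values for called members with a log2 difference of at least 1 either way, the largest of each role, the sensors and a few central genes. Alternatives to scaling, background correction, filter, replicate handling and model, 19 in all, were run. The number of arrays limits the precision. Same-numbered arrays of the groups did not deviate together (r = -0.214), so the numbers were not used as pairs.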

Additional observations from a re-analysis of the deposited data

How the results depend on the processing

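With 2 arrays per group and 2 residual degrees of freedom, the number of called genes depends on each array, and dim genes depend on the background correction; the causes of the changes below were not tested. The count of called probes, 7281, became 2655 with normexp, which used the median spot intensity, and 4637 to 5842 with 1 array left out. The 17 lower members became 29 with no scaling, 11 with the replicate block and 9 to 11 with 1 array left out. The 3 higher members became 0 with normexp or no scaling, 6 with quantile normalization, the deposited values or a variance trend with robust fit, 5 with probes above background on all scans, 7 with 6 scans as separate replicates or the scan session as a block, 1 with the replicate block and 0 to 2 with 1 array left out.

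Medians also moved. Without scaling they were -1.56 (chaperones), -1.45 (disulfide enzymes), -1.46 (translocon and glycosylation) and -1.17 (degradation). For disulfide enzymes the median was -0.23 with normexp, -0.41 with quantile normalization, -0.52 with the tested probes' median subtracted, with 6 scans or with the session block, -0.43 with deposited values and -0.62 with no filter. For translocon genes it was -0.65 with normexp, -0.44 with quantile normalization and -0.46 with deposited values, and for degradation genes -0.11 and -0.12 with the last 2. With 1 array left out the medians ranged from -0.70 to -0.49 (chaperones), -0.59 to -0.40 (disulfide), -0.48 to -0.45 (translocon) and -0.28 to -0.14 (degradation).

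Calls in the other lists became 4 (chaperones), 3 (disulfide), 6 (translocon), 5 (degradation) and 7 (UPR) with normexp. They were 10 for disulfide enzymes with 6 scans, and with 1 array left out 5 to 9, 5 to 7, 5 to 8, 9 to 11 and 10 to 12. Signs changed without scaling for Calr (-0.87), Sdf2l1 (-0.47), Pdia4 (-0.50), Creld2 (-0.78), Ssr4 (-0.46), Sec11c (-0.62) and Syvn1 (-0.34), and with normexp for Ero1a (0.38) and Stt3a (0.014). Among differences that stayed short of the threshold, Canx changed sign without scaling (-0.32), and Calr (-0.014), Creld2 (-0.23), Sec11c (-0.012) and Sec63 (0.077) with normexp; Hsp90b1, Calr and Herpud1 also did so under 1 to 4 other settings.

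The arrays share only a number (r = -0.214 for both numbers), and with the replicate block 5515 probes were called. A crossed pairing, chosen after seeing the data, called 7292 probes, 14 lower and 4 higher members.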
